A study of Mus musculus with 13 samples.

Results

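Expression of 8 transcription factors that specify or maintain habenular neurons was examined in medial habenula RNA of adult mice. The members were Pou4f1, Nr4a2, Etv1, Nhlh1, Nhlh2, Neurod2, Tcf7l2 and Isl1, chosen by gene symbol for their known roles in this and related neurons, and all 8 were among the 22682 symbols listed in all 13 libraries. All mice carried the Chat-TRAP DW167 transgene, which places a GFP-tagged ribosomal protein in cells that use the regulatory sequence of the choline acetyltransferase gene, so that anti-GFP beads recover polysome-bound mRNA of cholinergic neurons (immunopurification, IP). There were 6 IP libraries from mice with this transgene alone (wild type), 6 IP libraries from Gpr151-KO::Chat-TRAP DW167 mice, which also lack the orphan receptor Gpr151, and 1 library of unpurified homogenate (input, library 824) from wild-type mice. Each library pooled tissue of 4 adult mice, or of 3 for libraries 852 and 855, all older than 8 weeks. How the knockout allele was made is not stated in the labels, and medial habenula neurons that do not use the Chat sequence carry no tag.

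The medial habenula is a small epithalamic nucleus whose ventral neurons release acetylcholine and glutamate in the interpeduncular nucleus and carry dense nicotinic receptors. Pou4f1 (Brn3a), a POU-homeodomain protein, is required in mouse for the survival and transmitter identity of these neurons and for their expression of Nr4a2 (Nurr1), an orphan nuclear receptor. Nhlh1, Nhlh2 and Neurod2 are basic helix-loop-helix proteins that bind E-box DNA as dimers, Etv1 (Er81) is an ETS factor, Isl1 is a LIM-homeodomain factor of many cholinergic neurons, and Tcf7l2 is the HMG-box factor through which Wnt and beta-catenin signals reach DNA in the thalamus and habenula and has a known role in nicotine aversion in rodents.

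Counts on the shared symbols ranged from 24851120 to 59735793 per IP library and were 44106249 in the input, and levels are given as CPM, the count of a gene per 1000000 of these counts. The floor that a count of 0 allows, 3 counts, lay between 0.0502 and 0.121 CPM in the IP, for counting error only. By their library numbers the IP libraries fall into an earlier part (682 and 852 wild type, 683 and 855 knockout) and a later part (1091 to 1094 wild type, 1099 to 1102 knockout) whose tables list different numbers of symbols. Medial habenula markers (10 genes, among them Chat and the nicotinic subunits Chrna3 and Chrnb4) summed to 4248 to 6813 CPM in wild-type IP, 3479 to 7690 CPM in knockout IP and 1270 CPM in the input. Of the 10, Calb2 (169 CPM on average in wild-type IP against 209 in the input) and Slc17a6 (403 against 587) were lower in the IP. The others were higher in it on average. Gpr151, the targeted gene, had 479 ± 95.6 CPM in wild-type against 155 ± 42.3 CPM in knockout IP (SD, n = 6 each), so its counts were lower but not absent, and the groups did not overlap. In these bulk samples, fewer cells of a type and less RNA per cell cannot be told apart.

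The genes lie on 8 different chromosomes (GRCm38, GENCODE M21). Pou4f1 (ENSMUSG00000048349.9) occupies 104461676 to 104467999 on the minus strand of chromosome 14, Nr4a2 (ENSMUSG00000026826.13) 57106830 to 57124003 on the minus strand of chromosome 2, and Etv1 (ENSMUSG00000004151.17) 38779380 to 38870484 on the plus strand of chromosome 12. Nhlh1 (ENSMUSG00000051251.3) occupies 172052292 to 172057573 on the minus strand of chromosome 1, Nhlh2 (ENSMUSG00000048540.8) 102010076 to 102015492 on the plus strand of chromosome 3, and Neurod2 (ENSMUSG00000038255.6) 98325415 to 98329648 on the minus strand of chromosome 11. Tcf7l2 (ENSMUSG00000024985.19) spans 55741820 to 55933654 on the plus strand of chromosome 19 with 22 annotated transcripts, and Isl1 (ENSMUSG00000042258.13) 116298281 to 116309689 on the minus strand of chromosome 13. No other gene annotated in GENCODE M21 overlapped an exon of any of the 8. The annotation used for the counts is not named in the labels, so overlaps in it were not checked.

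E-box sequences stood before a RefSeq transcript start of 6 of the 8 genes. The share of all genes with either of the E-boxes searched was not counted, so this count cannot be judged as high or low. The sequences are shown because 3 of the members are E-box binding proteins. That of Etv1 stood before its second start, inside the span of the gene given above. Windows of 250 bases before the RefSeq transcript starts (GRCm38.p6; 10 windows, since Tcf7l2 and Etv1 have a pair of starts each) were searched on both strands. CAGATG, an E-box bound by NeuroD proteins, was in 4 of 10 windows, against 14.4% of all 32851 mouse windows, and CAGCTG, an E-box bound by Nhlh proteins, in 2 of 10, against 4271 of the 32851 windows. In the following 30-base stretches, written 5′ to 3′ on the strand of the gene, capitals mark the E-box.
Nhlh1, chr1:172057782-172057811, minus strand: atgcatggagaaCAGATGtccctgctcccc
Nhlh2, chr3:102010006-102010035, plus strand: cccacactgtgaCAGATGtcaagtccaatt
Neurod2, chr11:98329746-98329775, minus strand: agtagagagtgaCAGATGgcggcgggtccc
Etv1, second start, chr12:38783505-38783534, plus strand: agctcacaatcaCATCTGcttttggcaaga
Pou4f1, chr14:104468100-104468129, minus strand: gacagacggagaCAGCTGctgtctgtcagc
Isl1, chr13:116309774-116309803, minus strand: tgataatcagaaCAGCTGcgccgcgcgccc
In Etv1 the E-box reads CATCTG on the gene's strand, which is CAGATG on the other. The other motifs searched were ATAATTA for Pou4f1 (2.50% of all windows), TAATTA for Isl1, which any ATAATTA also contains (4.84%), AAAGGTCA for Nr4a2 (1.34%), CTTTGAT for Tcf7l2 (3.21%) and CCGGAAGT for Etv1 (2.88%), and these letters were in none of the 10 windows. A match is a stretch of letters and says nothing of binding.

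Among the members, Nr4a2 gave the highest level per kilobase of exon in wild-type IP RNA, with 311 CPM per kb on average and a range of 279.5 to 331 over the 6 libraries. This was place 65 among the 10028 genes with at least 5 CPM. Tcf7l2 followed at 164 CPM per kb (128 to 190), Pou4f1 at 70.7 (60.1 to 78.1) and Etv1 at 40.5 (36.3 to 51.0). The ranges of these 4 did not overlap, and each was above the next in 6 of 6 libraries. Neurod2 at 32.3 CPM per kb (16.8 to 43.1) and Nhlh2 at 32.1 (27.5 to 36.5) did not differ from each other beyond their spread, nor did Neurod2 and Etv1, whose order held in 5 of 6 libraries. Nhlh1 was lower at 11.6 CPM per kb (6.89 to 15.9), and Isl1 was last at 0.150 (0.0102 to 0.427). In the input the order differed, with Tcf7l2 first at 195 CPM per kb, Nr4a2 at 38.7, Etv1 at 10.8, Pou4f1 at 10.7, Nhlh2 at 7.09, Neurod2 at 2.41, Isl1 at 1.14 and Nhlh1 at 0.663. The length used is that of all annotated exons together, so a gene with many alternative exons such as Tcf7l2 or Etv1 gets a low value per kilobase.

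**Figure D1:**
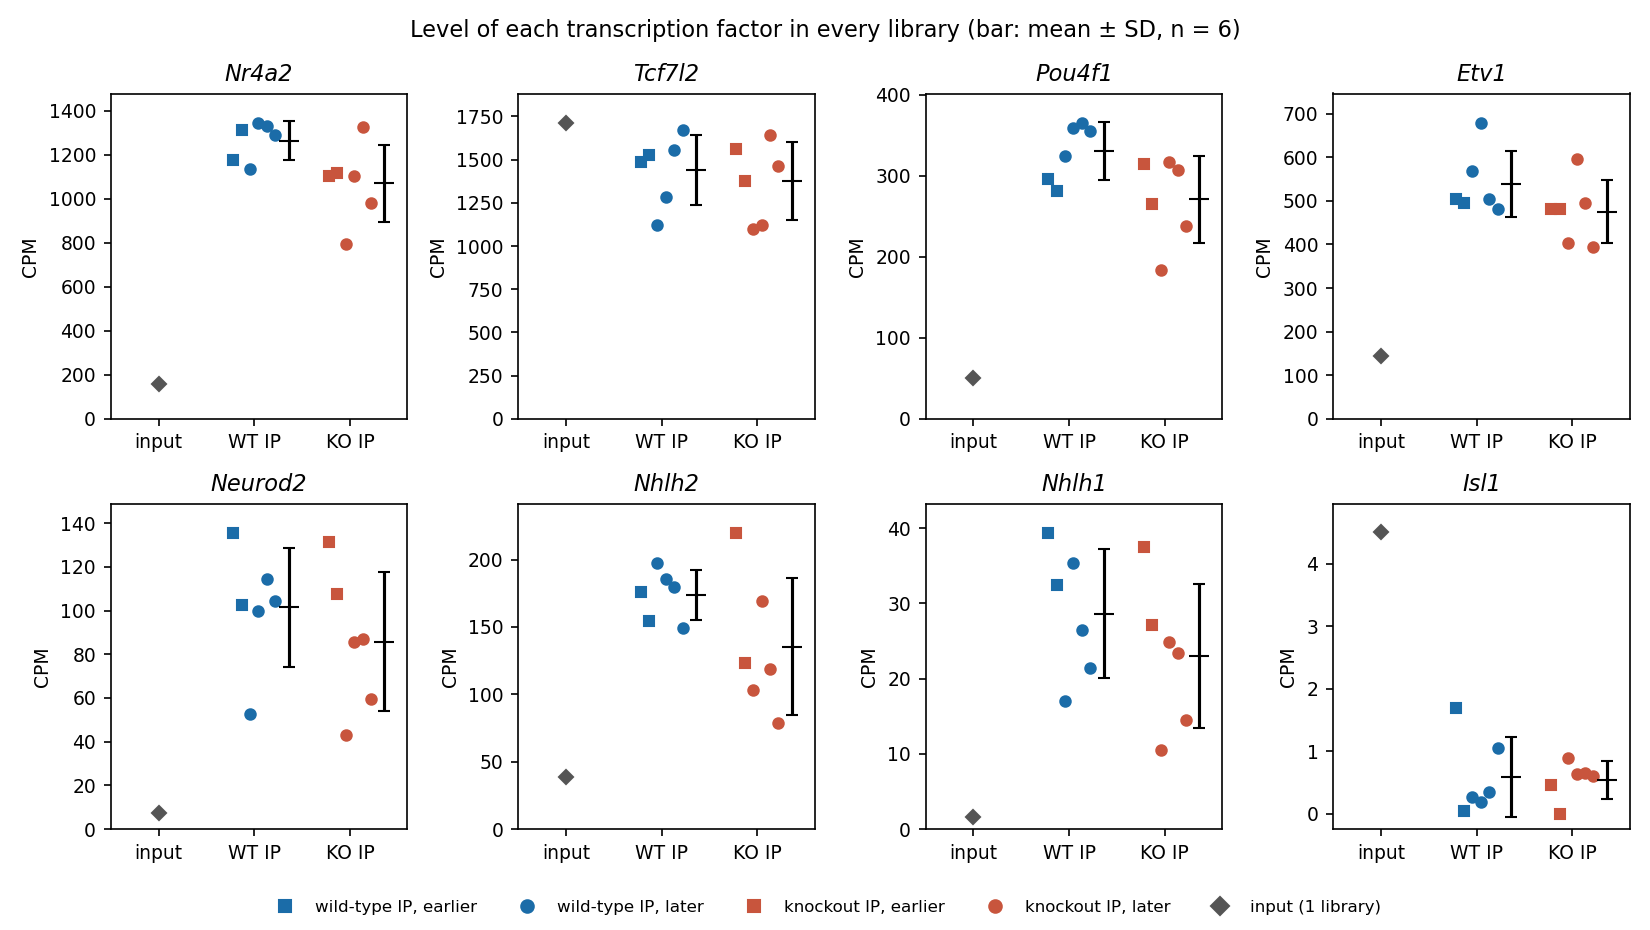
CPM (vertical axis, starting at 0 except for Isl1, whose SD bar reaches below 0) of the 8 transcription factors in the 1 input library, the 6 wild-type (WT) and the 6 knockout (KO) IP libraries; squares are earlier and circles later libraries, and bars give mean ± SD. The IP libraries lie above the input for 6 genes, below it for Tcf7l2 (1097 to 1668 against 1711 CPM) and far below it for Isl1.

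Purified RNA held more of 6 of the 8 factors than the homogenate did, about as much Tcf7l2 and less Isl1. A gene was called enriched when CPM + 1 was at least 2 times that of the input in each of the 6 wild-type IP libraries, a rule of size without a test, since the input is a single library. The input table listed 37328 symbols, against 32531 in earlier and 24454 in later IP tables, and its name mentions saccharin. Alignments ambiguous between genes were 3.98% in the input and 0.581% to 1.36% in the IP. The effect of these differences on the ratios was not tested. Of 11434 genes with 5 CPM in the input or on average in the IP, 4.71% were enriched and 11.1% were at most the inverse in every library (depleted). Of the members, 7 passed this minimum and 6 of them were enriched, and Nhlh1 passed it through its IP level alone. The median log2 ratio over all genes compared was -0.07. An edgeR fit that takes the spread of the single input from the IP libraries called the same 6 members higher in the IP, against 7.25% of 16211 genes, but holds no spread between input samples and is no test of that spread.

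Pou4f1, the regulator of habenular identity, was at 49.9 CPM in the input and at 281 (lowest), 340 (median) and 365 (highest) CPM in wild-type IP. All 6 IP libraries were thus at least 5.53 times above the input, with a median of 6.68-fold. Nr4a2 was at 157 CPM in the input and at 1135, 1300 and 1344 CPM in wild-type IP. Its ratio, a median of 8.23-fold, varied least of the enriched members on the log2 scale, from 2.85 to 3.09. Etv1, at 144 CPM in the input and 482, 505 and 678 CPM in wild-type IP, had the smallest ratio of the 6, a median of 3.50-fold and no library below 3.34-fold.

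The 3 basic helix-loop-helix factors were all enriched, and by different amounts. Neurod2, known from differentiating forebrain neurons, had 7.57 CPM in the input and 52.8, 103 and 135 CPM in wild-type IP, and its median ratio of 12.2-fold (log2 2.65 to 3.99) was the highest among the members and stood at place 48 of all 11434 genes. Nhlh1 had 1.63 CPM in the input, from 72 counts, and 17.0, 29.4 and 39.3 CPM in wild-type IP, a median ratio of 11.5-fold after the 1 CPM was added to both. Nhlh2 was more abundant, with 38.4 CPM in the input and 149, 178 and 198 CPM in wild-type IP, and had a median ratio of 4.54-fold (log2 1.93 to 2.33). The Nhlh2 to Nhlh1 ratio per kilobase accordingly was 10.7 in the input and 2.04 to 5.30 in the wild-type IP libraries, all 6 of them below the input. The highest of these was in library 1091, where Nhlh1 was at its lowest and Nhlh2 at its highest among wild-type libraries.

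Tcf7l2, the Wnt effector, was abundant and not enriched. It was at 1711 CPM in the input and at 1119, 1509 and 1668 CPM in wild-type IP, a median log2 ratio of -0.18 (range -0.61 to -0.04) that was below 0 in 6 of 6 libraries. This side depended on the scaling: with TMM factors, which moved the median over all genes from -0.07 to 0.12, only 3 of 6 libraries were below the input and the median was -0.02. Tcf7l2 is also known from thalamic neurons and the oligodendrocyte lineage. The 10 thalamic neuron markers summed to 3864 CPM in the input against 492 to 1963 CPM in wild-type IP, and the 10 oligodendrocyte markers to 2919 against 145 to 717 CPM, with no marker of either list at 0. The part of such cells in the input level of Tcf7l2 was not tested.

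Isl1 was low in the homogenate and lower in the purified RNA. It had 199 counts (4.51 CPM) in the input, under the 5 CPM minimum, and 61, 1, 15, 9, 16 and 42 counts in the wild-type IP libraries 682, 852, 1091, 1092, 1093 and 1094. These correspond to 0.0402 CPM at the lowest, 0.301 at the median and 1.69 at the highest, so all IP libraries were below the input while differing widely among themselves. Over the summed counts (144 in the IP), Isl1 was 7.99 times higher in the input (95% exact interval 6.41 to 9.97, from counting error alone). With a ratio of CPM + 1 the median was -2.08 on the log2 scale.

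The knockout IP libraries, set against the same input, gave the same calls for all 8 members (background 3.41% enriched and 7.11% depleted of 11399 genes). Their median log2 ratios were 2.49 for Pou4f1, 2.81 for Nr4a2, 1.74 for Etv1, 3.34 for Neurod2, 3.25 for Nhlh1, 1.63 for Nhlh2, -0.27 for Tcf7l2 and -1.77 for Isl1. The lowest single value of an enriched member was that of Nhlh2, 1.02, just inside the limit of 1.

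**Figure D2:**
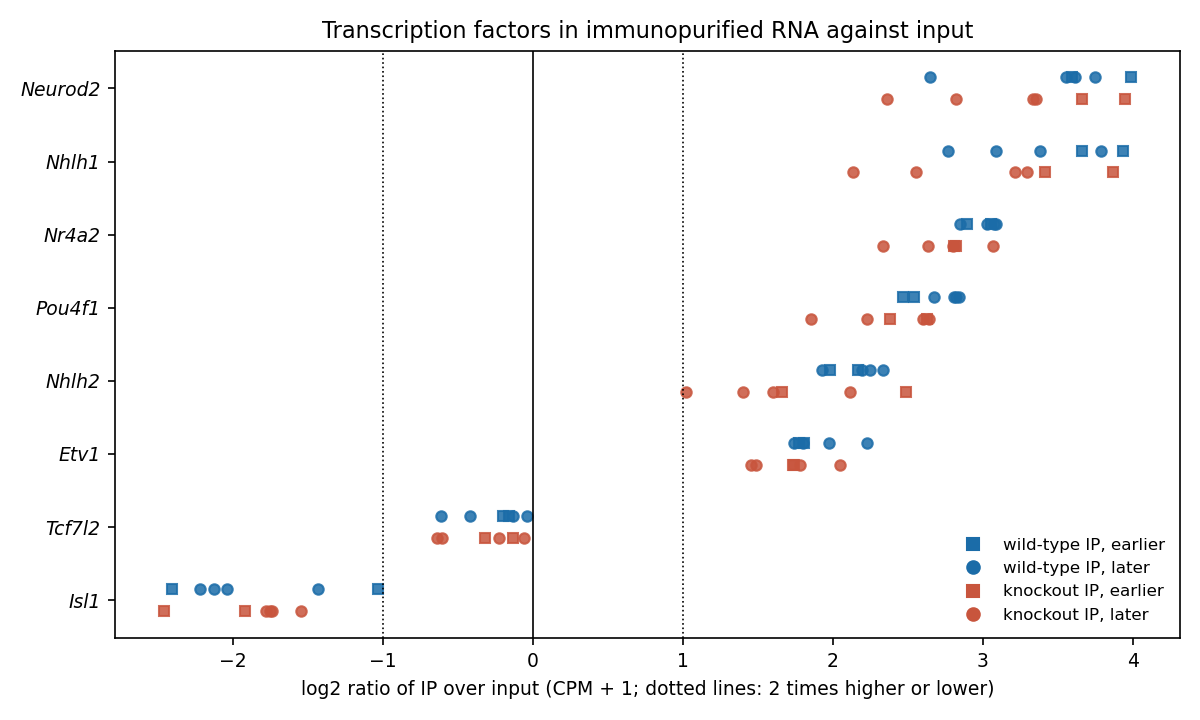
Log2 ratio of each IP library over the input (horizontal axis, CPM + 1) for the 8 transcription factors, with wild-type libraries in blue, knockout in red, earlier libraries as squares and later ones as circles. Every IP library lies beyond the dotted line at 1 for Neurod2, Nhlh1, Nr4a2, Pou4f1, Nhlh2 and Etv1, between -0.64 and -0.04 for Tcf7l2, and below -1 for Isl1.

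None of the 8 factors passed the test between Gpr151 knockout and wild type. In edgeR's quasi-likelihood test over the 12 IP libraries with the library set as a term, 2 of 14317 genes passed an adjusted p of 0.05 (0.014%, and 0.00698% for those lower in knockout), 438 had an unadjusted p under 0.05 (3.06%), and of the members 0 had either; DESeq2 called 12 genes (0.0838%) and no member. The log2 fold change of knockout over wild type was below 0 for 7 of 8 members, as it was for 49.6% of all genes, with a median of -0.25 over the members and 0.002 over all genes. The medial habenula markers were likewise below 0 in 9 of 10, with a median of -0.14. They ran from -0.38 for Chat, the lowest, to -0.015 for Chrna3 and 0.16 for Slc17a6, the highest. The adjusted p was 0.999 for each member in edgeR. The CPM ranges of the genotypes overlapped for all 8 members, and were apart for 0.135% of 14065 genes. Since the intervals reach well below 0 for most members, these data do not show that the levels were alike.

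Pou4f1 was at 183 (lowest), 286 (median) and 317 (highest) CPM in knockout IP, against 281, 340 and 365 in wild type. The ranges overlapped, with 3 knockout libraries below every wild-type one. The log2 fold change was -0.27 (95% interval -0.56 to 0.02), and the exact permutation test over the 12 libraries gave an unadjusted two-sided p of 0.0476. An exact permutation p under 0.05 was reached by 2.18% of all genes, and adjusted over them that of Pou4f1 was 1.00. With exchanges within library sets its unadjusted exact permutation p was 0.0357, a level under 0.05 that 3.01% of genes reached, and 0.986 after adjustment. These adjusted values cannot decide, since the smallest exact permutation p is 0.00216 over all splits and 0.00714 within sets. Gpr151, the targeted gene, reached both, and its adjusted exact permutation p was 0.9999 and 0.986.

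Nr4a2 had 796, 1104 and 1326 CPM in knockout IP against 1135, 1300 and 1344 CPM in wild-type IP. Of the knockout libraries 5 were below every wild-type library and the sixth, 1101, lay inside the wild-type range. Its log2 fold change was -0.22 (95% interval -0.47 to 0.03), with an unadjusted exact permutation p of 0.0238, two-sided, and an adjusted exact permutation p of 1.00 over all genes. That adjusted value cannot decide either, for the reason given for Pou4f1.

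Nhlh2 had the most negative log2 fold change of the members, -0.39 (95% interval -0.79 to 0.01; exact permutation p = 0.0758, unadjusted). Knockout libraries held 78.8, 121 and 219 CPM against 149, 178 and 198 CPM for wild type, so 4 knockout libraries were below and 1, library 683, above all wild-type ones. Nhlh1 had -0.34 (-0.82 to 0.14), with 10.6, 24.1 and 37.5 CPM in knockout against 17.0, 29.4 and 39.3 CPM in wild type. Neurod2 had -0.27 (-0.71 to 0.17), with 43.1, 86.1 and 131 CPM in knockout against 52.8, 103 and 135 CPM in wild type. In both of these the groups overlapped over most of their range.

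Etv1 had a log2 fold change of -0.17 (-0.44 to 0.11) and levels of 395, 481 and 596 CPM in knockout against 482, 505 and 678 CPM in wild type. Tcf7l2 was closest to 0, at -0.05, and its interval of -0.33 to 0.24 covers changes between 0.795-fold and 1.18-fold. Knockout libraries ran from 1097 to 1643 CPM and wild-type ones from 1119 to 1668 CPM, which are nearly the same ranges. Isl1 had 18, 0, 41, 38, 28 and 31 counts in knockout libraries 683, 855, 1099, 1100, 1101 and 1102, and with so few counts its log2 fold change of 0.09 had an interval of -1.22 to 1.40.

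Fitted apart, the later libraries gave a lower log2 fold change than the earlier ones for every member but Isl1, by very little for Tcf7l2. A difference between earlier and later libraries was itself not called. Pou4f1 was at 325, 359, 365 and 355 CPM in wild-type libraries 1091 to 1094 and at 183, 317, 308 and 238 CPM in knockout libraries 1099 to 1102, so that all 4 knockout values were below all wild-type values, an order that 1.07% of all genes also had and no other member. In the earlier pairs Pou4f1 was at 296 CPM in wild-type 682 and 314 in knockout 683, and at 281 in wild-type 852 and 265 in knockout 855. Nhlh2 was at 176 and 219 CPM in the first of these pairs and at 155 and 124 CPM in the second, so neither factor had 1 direction there. Nr4a2 was lower in knockout in both earlier pairs, 1175 against 1105 CPM and 1312 against 1117 CPM. The edgeR fit to the 4 earlier libraries alone gave -0.01 for Pou4f1 and Nhlh2 and 0.0029 for Neurod2, and that to the 8 later ones -0.41, -0.59 and -0.41. The other members had, in earlier and later libraries, -0.17 and -0.26 for Nr4a2, -0.17 and -0.44 for Nhlh1, -0.07 and -0.23 for Etv1, -0.05 and -0.06 for Tcf7l2, and -2.04 and 0.66 for Isl1, which went the other way. Nhlh1 and Etv1, like Nr4a2, were lower in knockout in both earlier pairs. Isl1 was at 1.69 CPM in wild-type 682 and 0.454 in knockout 683. It had 1 count in wild-type 852 and 0 in knockout 855, too few to give a direction. In the test of whether the genotype difference changed from earlier to later libraries, edgeR called 0 of 14317 genes (0%), 325 genes (2.27%) had an unadjusted p below 0.05, and DESeq2 called 2, neither of them a member. Among the members Isl1 alone had an unadjusted p under 0.05 (0.0451, edgeR adjusted p = 1.00), on the few counts given above.

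Markers of other cells, neuronal and non-neuronal, also varied among the IP libraries. The mean log2 CPM of the non-neuronal markers (27 genes of astrocytes, oligodendrocytes, their precursors, microglia and endothelium) was 1.58 to 3.69 in wild-type and 1.64 to 4.40 in knockout libraries, with knockout libraries 1099 (4.40) and 1102 (4.11) and then wild-type library 1091 (3.69) at the top. Their summed level was 335 to 1735 CPM in wild type and 374 to 3193 CPM in knockout, 24 of 26 tested markers had a log2 fold change above 0, and none was at 0 in all libraries of a group. Markers of other neurons were also higher in knockout on average without passing the test: the log2 fold change was above 0 for 8 of 8 GABAergic markers tested (median 1.09, 6 with an unadjusted p under 0.05), 8 of 8 lateral habenula markers (median 0.70) and 9 of 10 thalamic markers (median 0.63). The summed level ranged in wild type and knockout from 17.8 to 157 and 54.3 to 329 CPM for the GABAergic list, from 195 to 940 and 269 to 1492 CPM for the lateral habenula list, and from 492 to 1963 and 436 to 2784 CPM for the thalamic list. By summed level the GABAergic list was highest in library 1099. By mean log2 CPM it was highest, among IP libraries, in 683 (2.14) and 682 (1.39). These 2 had the highest Nhlh1 and Neurod2 levels of their genotypes. Library 1099 had the lowest knockout level of Pou4f1, Nr4a2, Nhlh1, Neurod2 and Tcf7l2, library 1102 that of Nhlh2 and Etv1, and library 1091 the lowest wild-type level of Nr4a2, Nhlh1, Neurod2 and Tcf7l2 but the highest of Nhlh2. Without these 3 libraries the log2 fold change was -0.11 for Pou4f1, -0.14 for Nr4a2, -0.14 for Nhlh2, -0.19 for Nhlh1, -0.16 for Neurod2, -0.04 for Etv1 and -0.08 for Tcf7l2. With the score as a covariate it was -0.18 for Pou4f1, -0.15 for Nr4a2, -0.31 for Nhlh2, -0.11 for Nhlh1, -0.07 for Neurod2, -0.09 for Etv1 and -0.04 for Tcf7l2. The part of other cells' RNA in the differences was not tested.

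**Figure D3:**
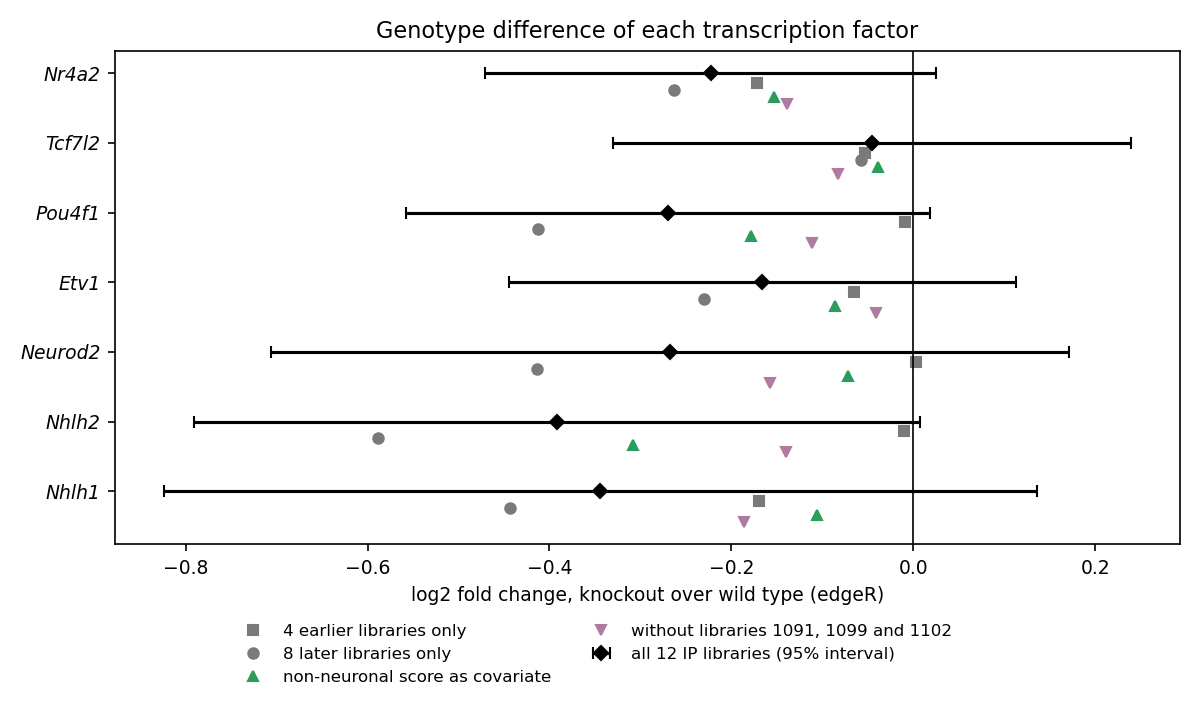
Log2 fold change of knockout over wild-type IP (horizontal axis) for the 7 transcription factors with over 5 CPM; black diamonds and bars give the edgeR estimate with its 95% interval over all 12 IP libraries, and the other symbols the estimate under 4 other choices of libraries or covariate. All 7 intervals include 0, and without libraries 1091, 1099 and 1102 the estimates lie between -0.19 and -0.04.

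**Figure D4:**
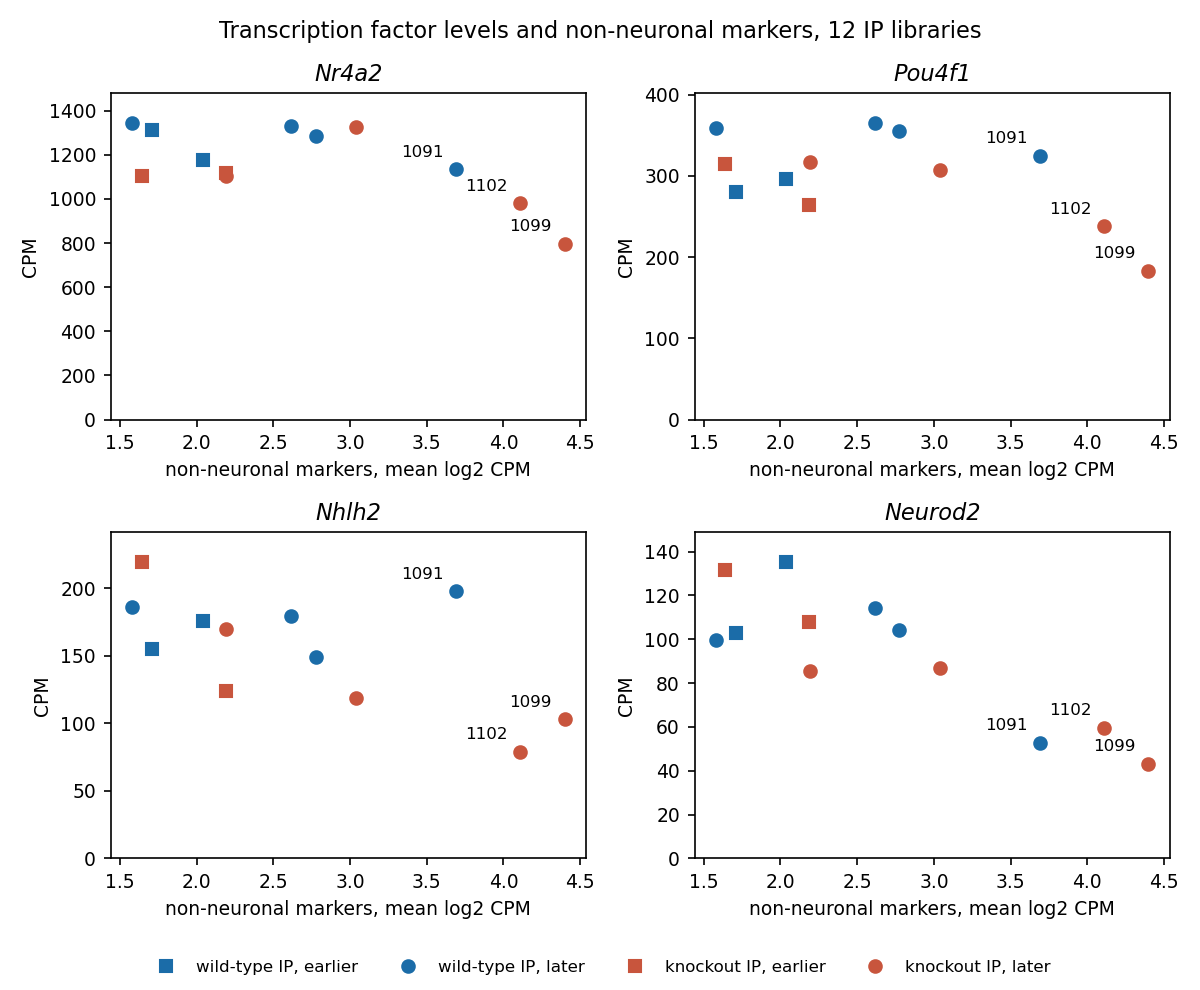
CPM of 4 transcription factors (vertical axis) against the mean log2 CPM of the non-neuronal markers (horizontal axis) in the 12 IP libraries; blue is wild type, red knockout, squares are earlier and circles later libraries. Knockout libraries 1099 and 1102 and wild-type library 1091 lie at the right, and Nhlh2 in library 1091 is high where the other 3 factors in it are low or average.

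Several of the factors varied together from library to library, as did many other genes. After the mean of each library set was removed from log2 CPM, Pou4f1 and Nr4a2 had a Pearson r of 0.92 over the 12 IP libraries, Nr4a2 and Nhlh1 0.89, Pou4f1 and Nhlh1 0.87, and Nhlh2 and Etv1 0.82. Neurod2 had 0.87 to Nhlh1, 0.84 to Nr4a2, 0.82 to Pou4f1, 0.48 to Etv1 and 0.45 to Nhlh2. Nhlh2 had 0.77 to Pou4f1, 0.65 to Nhlh1 and 0.59 to Nr4a2. Etv1 had 0.80 to Nhlh1, 0.73 to Pou4f1 and 0.62 to Nr4a2. Tcf7l2 had 0.62 to Neurod2, 0.60 to Nr4a2, 0.40 to Pou4f1, 0.33 to Nhlh1, -0.15 to Nhlh2 and -0.23 to Etv1. Within a library all genes share its depth and its level of other cells' RNA, and genotype was not removed from these values. Of the 10395 other genes with at least 5 CPM, those most like Pou4f1 were March4, Sec22b and Ccdc167 (r of 0.98, 0.97 and 0.97), and those most like Nr4a2 were Bcl11a, Spa17 and Klhdc10 (0.96, 0.96 and 0.95). Etv1 was most like Zfand5, Lrrc4c and Rbm11 (0.98, 0.97 and 0.96), and Tcf7l2 most like Mier2, Tbcc and Sf1 (0.99, 0.98 and 0.98). The closest genes were Mtfr1, Snhg18 and Faxc for Nhlh1 (0.97, 0.96 and 0.96), Kctd4, Stx3 and Chp2 for Nhlh2 (0.98, 0.97 and 0.97), and Vstm2b, Mrpl30 and Pfn1 for Neurod2 (each 0.99 or more). In this order of likeness the closest other member stood at place 70 for Pou4f1 (Nr4a2) and 42 for Nr4a2 (Pou4f1). It stood at place 298 for Nhlh1 (Nr4a2), 152 for Nhlh2 (Etv1) and 449 for Etv1 (Nhlh2). For Neurod2 it stood at place 1307 (Nhlh1) and for Tcf7l2 at place 2382 (Neurod2). Isl1 was too low for this comparison.

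Close relatives of the members were mostly low. Of 16 family relatives, 7 passed the 5 CPM minimum against input and 2 were enriched, against 4.71% of all genes. Both are named here after their values were seen. Neurod1, a proneural relative of Neurod2, was at 236 ± 26.1 CPM in wild-type IP and 32.1 CPM in the input, a median log2 ratio of 2.81, and per kilobase was above Neurod2 in 6 of 6 wild-type libraries (86.5 ± 9.56 against 32.3 ± 8.65 CPM per kb, SD, n = 6). Tcf7, a relative of Tcf7l2, was at 71.4 ± 10.7 CPM against 8.39 CPM in the input, a median log2 ratio of 3.03, unlike Tcf7l2 itself. Lef1, another relative of Tcf7l2, was at 84.4 CPM on average in wild-type IP against 86.5 CPM in the input. Its median log2 ratio was -0.14, and it was not enriched. The activity-regulated relatives of Nr4a2, Nr4a1 and Nr4a3, had median log2 ratios of -0.79 and 0.36 and were not enriched. The Pou4f1 relatives Pou4f2 and Pou4f3 and the Isl1 relative Isl2 were under the minimum, at 0.0750, 0.169 and 0.0249 CPM on average in wild-type IP. In the genotype fit 10 relatives were tested, edgeR called 0, and their median log2 fold change was -0.02, and among those with a mean of at least 5 CPM over the IP libraries Nr4a3 (-0.23) and Neurod1 (-0.22) were lowest and Etv5 (0.12) and Nr4a1 (0.10) highest.

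Around Tcf7l2, 6 of 39 Wnt and beta-catenin pathway genes with enough signal were enriched in wild-type IP and 9 were depleted, against backgrounds of 4.71% and 11.1%, with a median log2 ratio of 0.32. All depleted genes but Pygo1 and Nkd1 passed the 5 CPM minimum through their input level alone. The enriched genes, named after their values were seen, were the frizzled receptors Fzd7 (3.07) and Fzd1 (2.25), the beta-catenin inhibitor Ctnnbip1 (2.46), the dishevelled protein Dvl3 (1.73), the feedback inhibitor and Wnt target Axin2 (1.73) and the corepressor Ctbp2 (1.59). Beta-catenin itself, Ctnnb1, was at 648 ± 142 CPM in wild-type IP and 538 CPM in the input (median log2 ratio 0.36). Between the genotypes 46 of the 50 listed genes were tested, edgeR called 0, and 5 had an unadjusted p under 0.05. The most negative values among genes with at least 5 CPM were those of Ctbp2 (-0.30 ± 0.10, SE) and the secreted inhibitor Wif1 (-0.26 ± 0.26), the most positive those of the secreted Dkk3 (0.89 ± 0.44) and the dishevelled-binding Nkd1 (0.79 ± 0.34), all with an edgeR adjusted p of 0.999.

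Partners of the factors on DNA, such as the E proteins that pair with the helix-loop-helix members and the LIM-binding and corepressor proteins, were mostly present at levels near the input. Of 25 compared, 1 was enriched and 3 depleted, near the 4.71% and 11.1% of all genes, with a median log2 ratio of 0.02. The enriched gene was Lmo3, a LIM-only protein (245 ± 62.3 CPM in wild-type IP and 86.1 CPM in the input). The E proteins Tcf4 (180 ± 25.6 CPM), Tcf12 (73.6 ± 5.10 CPM) and Tcf3 (17.4 ± 3.76 CPM) were not, and the inhibitors of helix-loop-helix dimers Id2 and Id3 were depleted, with median log2 ratios of -3.49 and -2.82. Id2 and Id3, each at 1.28 CPM on average in wild-type IP, passed the 5 CPM minimum through their input level alone. Of 28 partners tested between the genotypes edgeR called 0, 0 had an unadjusted p under 0.05, and the median log2 fold change was -0.01, and among those with a mean of at least 5 CPM over the IP libraries Ssbp4 (-0.20) and Lmo2 (-0.20) were lowest and Ldb2 (0.81) and Lmo4 (0.25) highest.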

How the data were processed

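Each library had 1 deposited table of raw read counts per gene symbol. The submitters' processing notes name HTSeq, DESeq2 and STAR 2.3.0e, with mm10 as the build, while the annotation and the use of strand were not found in the labels. An Ovation kit made amplified cDNA, per the labels' protocols, so intervals and floors cover counting error only. Saline appears in most table names and saccharin in the input's, and the labels name no treatment. Summary lines and 1 nameless row were left out (alignments outside genes were 9.44% to 16.6% per IP library). CPM used the 22682 symbols common to all libraries; the genotype fit used the 23857 common to the IP libraries. edgeR 4.0.16 in R 4.3.3 (TMM, filterByExpr with a minimum count of 10 and total of 15, robust quasi-likelihood, library set 682-683, 852-855 or later as a term) gave two-sided p-values, Benjamini-Hochberg adjusted over all genes, and was tested on simulated data. DESeq2 1.42.0 was an alternative. Permutation tests used log2 CPM with a prior count of 2 over all splits into 6 and 6. Promoter windows came from RefSeq (8 of 8 members matched). Replicates were separate pools of mice per the labels. Members and lists were chosen with earlier results of these data known. Named genes were the members, the 2 genes with the highest and the 2 with the lowest log2 fold change per list and the 3 most similar genes per member; others were named after their values were seen. Alternatives were other scaling, filters, tools, pseudocounts, sizes and sets of libraries.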

Additional observations from a re-analysis of the deposited data

How the results depend on the processing

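No member was called between the genotypes under any of 21 alternatives, and with them the smallest adjusted p of a member was 0.710 (edgeR, without library 1091). The count over all genes was 2, and it was 12 with DESeq2, 1 with the 1 CPM minimum in 6 libraries, 1 without libraries 1091, 1099 and 1102, 0 with the 8 later libraries alone and 0 to 2 with 1 library left out (0 without library 683). Gpr151, the targeted gene, had a log2 fold change of -1.63 in the main fit (edgeR adjusted p = 0.00592). It was not called with the 8 later libraries alone (-1.54, edgeR adjusted p = 0.424) or without library 683 (-1.54, edgeR adjusted p = 0.0538). That no member was called in those fits therefore says little. Pou4f1, Nr4a2, Nhlh1, Nhlh2 and Etv1 kept a negative value in all 21 alternatives. Direction reversed for values near 0 or on few counts: Neurod2 was 0.0029 with the earlier libraries, Tcf7l2 0.0066 without library 1094 and 0.0086 without library 1100, and Isl1 -0.073 without the library set term, -2.04 with the earlier libraries, -0.39 without libraries 1091, 1099 and 1102, -0.11 with the non-neuronal covariate, and -0.20 to 0.57 with 1 library left out (-0.14 without 1091, -0.20 without 1092, -0.10 without 1093 and -0.10 without 1099). The cause was not tested. The same 6 members were enriched over input under every alternative; without the minimum on low values Isl1 was depleted, so 1 member was (0 otherwise). With the edgeR fit to the lone input, whose spread is assumed to be that of the IP libraries, their log2 ratios were 2.11 to 4.33. Leaving out 1 library of an earlier pair leaves its partner absorbed by the set term. No paired analysis was possible because the labels give the genotypes no shared replicate numbers; the library sets, which join 682 with 683 and 852 with 855, are a term of the fit, and without it 2 genes and no member were called. Its low counts limit Isl1 in every comparison.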

Other observations

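Other transcription factors of the habenula and thalamus, from a list of 41 chosen with earlier results known, included enriched and depleted genes in the purified RNA. Of 36 compared, 9 were enriched and 10 depleted in wild-type IP, against 4.71% and 11.1% of all genes, and the genes named here were chosen after their values were seen. The enriched ones included Irx1 (median log2 ratio 3.24), Irx2 and Irx5 (2.74 each), Zic4 (2.32) and Ebf1 (2.15). Irx5, Irx3 and Sox4, 3 of the 9, passed the 5 CPM minimum only through their IP level and so could not have been counted as depleted. Zic1, a zinc finger factor, was abundant at 1483 ± 209 CPM (SD, n = 6) and, with a median log2 ratio of 1.06, was not called, since its lowest library had 0.86. The thalamic factors Gbx2 (-3.60), Rorb (-3.18), Prox1 (-2.59) and Rora (-2.38) were depleted. Of the depleted genes, Gbx2, Six3 and St18 passed the minimum only through their input level and so could not have been counted as enriched. In the genotype fit edgeR called 0 of 39 tested, 1 had an unadjusted p under 0.05, and the median log2 fold change was -0.07, and among those with a mean of at least 5 CPM over the IP libraries Sox4 (-0.38) and Irx5 (-0.34) were lowest and Mef2c (0.86) and Gbx2 (0.76) highest.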
